A study of Homo sapiens with 21 samples.

Results

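MITF, SOX10, PAX3, TFAP2A and LEF1 are 5 genes for transcription factors of the melanocyte lineage, taken here from 19974 protein-coding genes. Every region in a deposited list was counted for a gene when its midpoint lay in the gene body or within 100 kb of either gene end (hg38). This gave 1598 of 1120474 regions over 15 lists, each from a single library. The lists cover open chromatin by ATAC-seq and histone H3 lysine 27 acetylation (K27ac, found at active promoters and enhancers) in the human melanoma lines A375, 501mel, SKMEL-147 and SKMEL-5, 4 in all. They also cover the insulator protein CTCF in 501mel and SKMEL-5, and the HA-tagged homeobox factor HOXD13 in A375 (A375-HOXD13-HA). The region names of the 501mel ATAC list carry the word siNTC, which the labels do not mention, so a treatment of these cells cannot be told apart from the line wherever 501mel ATAC is compared. A375 with the name GFP supplied its ATAC and K27ac lists. A375 with the hairpins shH2 and shH3 supplied 1 K27ac list each, and A375 with shNTC, read as the non-targeting control, supplied 2 K27ac replicates. All cells were cultured for 72 h. Doxycycline at 1 µg/ml was used in some of them to switch on hairpins or overexpression, and the labels do not say in which. The series design names silencing and overexpression of HOXD13, but the labels give shH2 and shH3 no target.

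MITF is the basic helix-loop-helix factor that switches on pigment genes and keeps melanocytes alive. SOX10, a high-mobility-group factor of the neural crest, and PAX3, a paired-box factor, both activate MITF. LEF1 carries the WNT signal to MITF with beta-catenin, and cAMP reaches MITF through CREB at a cAMP response element. TFAP2A, the AP-2 alpha factor, binds beside MITF at many pigment genes. MITF has several promoters, of which the innermost, called M, is the one used in the melanocyte lineage.

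The lists held no read counts, so depth is unknown, and the number of regions stands in for it. Region numbers ran between 56333 in SKMEL-5 and 163102 in SKMEL-147 for ATAC, and between 42115 in SKMEL-5 and 139985 in A375-GFP for K27ac. shH2 and shH3 held 43634 and 51838 K27ac regions, against 85977 and 80242 in the shNTC replicates. With 1 library a group in all but shNTC, no test between groups was possible, and a region missing from a short list was not detectable in that list, which does not show that it is absent. The fold of a region is the authors' enrichment over background, and its percentile is the share of its own list with a −log10 q at or below its own. Of 7 melanocytic markers (TYR, TYRP1, DCT, PMEL, MLANA, SOX10, MITF), K27ac lay within 2 kb of a start at 7 in 501mel, 7 in SKMEL-5, 3 in A375-GFP and 1 in SKMEL-147. That 1 marker was SOX10, so K27ac at the other 6 defining markers was not listed in this line. Over all genes the share with K27ac so placed was 26.1% in 501mel, 48.2% in SKMEL-5, 55.8% in A375-GFP and 24.6% in SKMEL-147. The melanocytic markers, which include MITF and SOX10 themselves, stood above that share in 501mel and SKMEL-5 only. K27ac was listed at 0 to 2 of 5 keratinocyte, 1 to 4 of 5 fibroblast, 0 to 1 of 4 endothelial and 0 to 1 of 4 T cell markers per line. The 4 fibroblast markers were COL1A1, PDGFRA, DCN and LUM in SKMEL-5.

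The RefSeq promoter table (GRCh38.p14) held 4 of the 5 genes, with 3 starts for MITF, 2 for TFAP2A and 1 each for PAX3 and LEF1. SOX10 is named only, and its upper gene end at base 37984555 of chromosome 22 was taken as its start, since the gene is known to run on the minus strand. The 250 bases before 4 starts are shown because the lists marked the starts of 1 gene unlike each other. Capitals mark 3 motifs: ACAATG (a SOX-type site), CTTTGAT (a TCF/LEF-type site) and TGACGTCA (a cAMP response element).
MITF outermost start, chr3:69739214-69739463, plus strand: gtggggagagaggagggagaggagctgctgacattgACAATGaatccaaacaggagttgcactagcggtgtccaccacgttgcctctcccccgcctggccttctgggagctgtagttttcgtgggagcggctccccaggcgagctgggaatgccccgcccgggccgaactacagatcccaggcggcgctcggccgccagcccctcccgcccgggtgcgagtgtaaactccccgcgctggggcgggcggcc
MITF M start, chr3:69936342-69936591, plus strand: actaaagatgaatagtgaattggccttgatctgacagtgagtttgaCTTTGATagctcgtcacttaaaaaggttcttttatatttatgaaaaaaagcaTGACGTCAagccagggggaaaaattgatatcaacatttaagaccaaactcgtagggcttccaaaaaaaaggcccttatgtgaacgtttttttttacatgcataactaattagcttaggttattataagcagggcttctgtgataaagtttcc
TFAP2A outer start, chr6:10419660-10419909, minus strand: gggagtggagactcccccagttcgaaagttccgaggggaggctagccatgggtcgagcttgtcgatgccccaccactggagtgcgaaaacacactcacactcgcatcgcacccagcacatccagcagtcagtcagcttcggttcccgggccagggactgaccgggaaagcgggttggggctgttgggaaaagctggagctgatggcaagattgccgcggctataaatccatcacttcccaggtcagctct
TFAP2A inner start, chr6:10412392-10412641, minus strand: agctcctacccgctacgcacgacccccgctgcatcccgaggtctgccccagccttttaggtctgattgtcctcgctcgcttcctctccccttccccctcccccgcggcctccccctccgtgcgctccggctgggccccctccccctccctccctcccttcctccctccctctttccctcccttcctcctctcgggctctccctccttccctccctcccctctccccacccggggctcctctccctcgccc

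The MITF M sequence held CTTTGAT at bases −204 to −198 and TGACGTCA at −152 to −145, counted from the start. Of 35097 RefSeq promoters of the same length, 2.26% held CTTTGAT and 1.65% held TGACGTCA on either strand. The outermost MITF start held ACAATG at −214 to −209, a motif of 9.29% of promoters. The middle MITF start held ACAAAG, on the other strand as CTTTGT, at −189 to −184, and 13.7% of promoters held it. No motif searched, on both strands, lay in the PAX3, TFAP2A or LEF1 sequences. The motifs not found at any of the 7 starts were CACGTG (6.34% of promoters), CATGTG (9.41%), GCCNNNGGC (19.8%) and CAATAAA with its reverse TTTATTG (3.67%). The share of G and C was 34.8% before the M start, 46.8% before the middle MITF start and 68% before the outermost one. It was 59.6% and 71.2% before the outer and inner TFAP2A starts, 64% before PAX3 and 47.6% before LEF1, against a median of 58% over all promoters.

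The promoters of the 5 genes were open almost everywhere, and K27ac set the lines apart at MITF and LEF1. A promoter counted as open or acetylated when a listed region lay within 2 kb of any of its starts. An open promoter was listed for 5 of 5 genes in 501mel, where 70.7% of all genes had one, and for 4 of 5 in SKMEL-5, where 62.9% had one. It was listed for 5 of 5 in SKMEL-147, against 78.1% of all genes, and for 5 of 5 in A375-GFP, against 78.3%. The missing one was LEF1 in SKMEL-5, which was listed as open with windows of 5 kb. An acetylated promoter was listed for 5 of 5 genes in 501mel, where 26.1% of all genes had one, and for 5 of 5 in SKMEL-5, against 48.2%. SKMEL-147 listed 3 of 5, against 24.6% of all genes, and A375-GFP listed 5 of 5, against 55.8%. MITF and LEF1 were the 2 genes without promoter K27ac in SKMEL-147, where windows of 5 kb gave 4 of 5 genes with it. For LEF1 this contrast rested partly on weak regions, with a −log10 q of 3.17 in 501mel and 9.66 in A375-GFP. Among regions with a −log10 q of at least 10, LEF1 had promoter K27ac in SKMEL-5 alone. With so many genes carrying a listed promoter and 5 genes in the set, these counts describe the genes one by one.

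**Figure D1:**
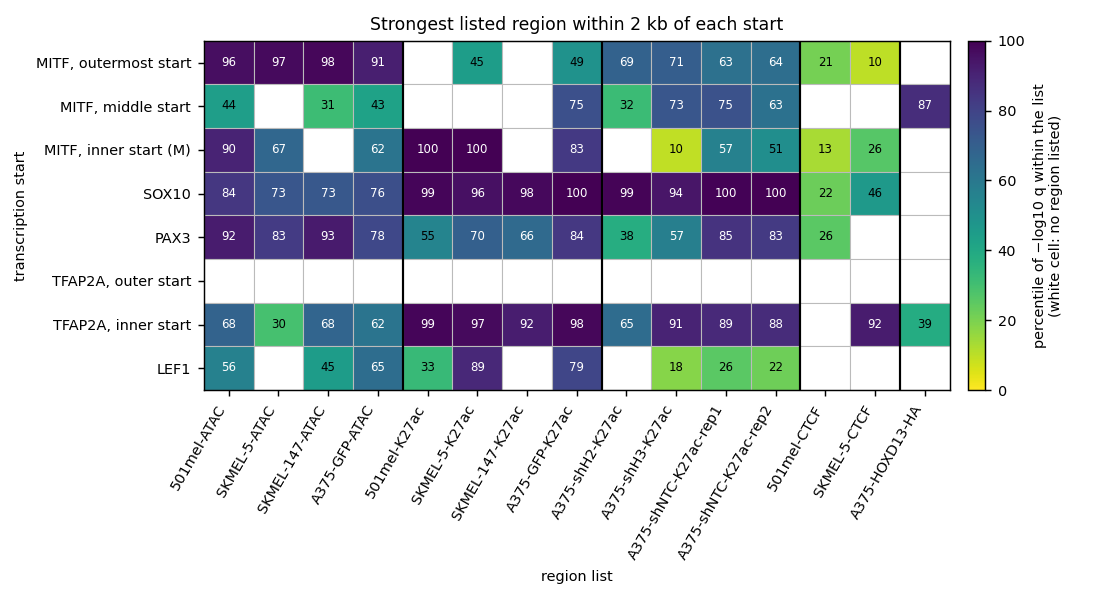
Columns are the 15 region lists and rows the transcription starts; colour and number give the percentile of −log10 q, within its list, of the strongest region within 2 kb of the start, and white means none listed. The outer TFAP2A start is white throughout, and the M start of MITF ranges from 100 in 501mel and SKMEL-5 K27ac to white in SKMEL-147.

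MITF showed the widest contrast in promoter K27ac, and that contrast lay at the M start. The M start held the highest-ranked K27ac region of the 3 starts in 501mel, SKMEL-5 and A375-GFP. Of the 4 lines, A375-GFP alone listed K27ac within 2 kb of the middle start (percentile 75.4, against 83.3 at the M start). SKMEL-147 listed none at any of the 3 starts. At the outermost start (chr3, base 69739464) all 4 lines listed an ATAC region over the start, with folds of 14.4 in 501mel, 14.8 in SKMEL-5, 23.7 in SKMEL-147 and 9.57 in A375-GFP. For SKMEL-147 it was the strongest ATAC region of the whole MITF window. K27ac within 2 kb of this start was weak or missing, with no region in 501mel and SKMEL-147, a fold of 5.24 in SKMEL-5 and 2.74 in A375-GFP. The chromatin at this start was therefore listed as open in every line but carried K27ac in 2 of 4.

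The M start (base 69936592) lies 197128 bases inside the gene. An ATAC region covered it in 501mel (chr3:69936031-69936748, fold 12.7), SKMEL-5 (chr3:69936101-69936700, fold 7.97) and A375-GFP (chr3:69936133-69936718, fold 6.40), and none lay within 2 kb in SKMEL-147. In SKMEL-5 a single K27ac region of 31.2 kb (chr3:69919180-69950413, fold 106.5) spanned the start, at percentile 99.98 of its list by −log10 q and 99.99 by width. In 501mel 9 regions together covered 85.5% of that stretch, the strongest beginning just inside the gene from the start (chr3:69936733-69941256, fold 26.6, percentile 99.8). A375-GFP listed 8 smaller regions over 21.2% of the stretch, with a fold of 5.19 at the region nearest the start (chr3:69937507-69938624). SKMEL-147 listed none there. The M start thus lay inside 1 of the strongest K27ac regions of SKMEL-5. In 501mel and A375-GFP no K27ac region covered the start itself, with a strong region beside it in 501mel and a weaker one in A375-GFP.

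The order of the lines was another one around the middle start. Within 25 kb of the middle start (base 69763811), a width chosen after the values were seen, K27ac covered 10.4% of the stretch in 501mel, 3.46% in SKMEL-5, 11.4% in SKMEL-147 and 30.9% in A375-GFP. Within 25 kb of the outermost start, a stretch that overlaps the former, it covered 8.56% in 501mel and 1.93% in SKMEL-5. It covered 0% there in SKMEL-147 and 9.88% in A375-GFP. Within 25 kb of the M start it covered 71.9% in 501mel, 85.8% in SKMEL-5, 0% in SKMEL-147 and 13.2% in A375-GFP. The strongest MITF K27ac region of SKMEL-147 was chr3:69768980-69771547 (fold 7.22), 30.8 kb downstream of the outermost start, where 501mel and SKMEL-5 listed none. In A375-GFP the strongest was chr3:69646565-69653188 (fold 12.9, 6.62 kb wide), 89.6 kb upstream of the gene. At that place SKMEL-5 listed a fold of 5.68 and SKMEL-147 a fold of 3.85, and 501mel listed no K27ac although its ATAC list held a region there. K27ac of A375-GFP and SKMEL-147 at MITF therefore lay mainly outside the stretch that 501mel and SKMEL-5 filled.

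**Figure D2:**
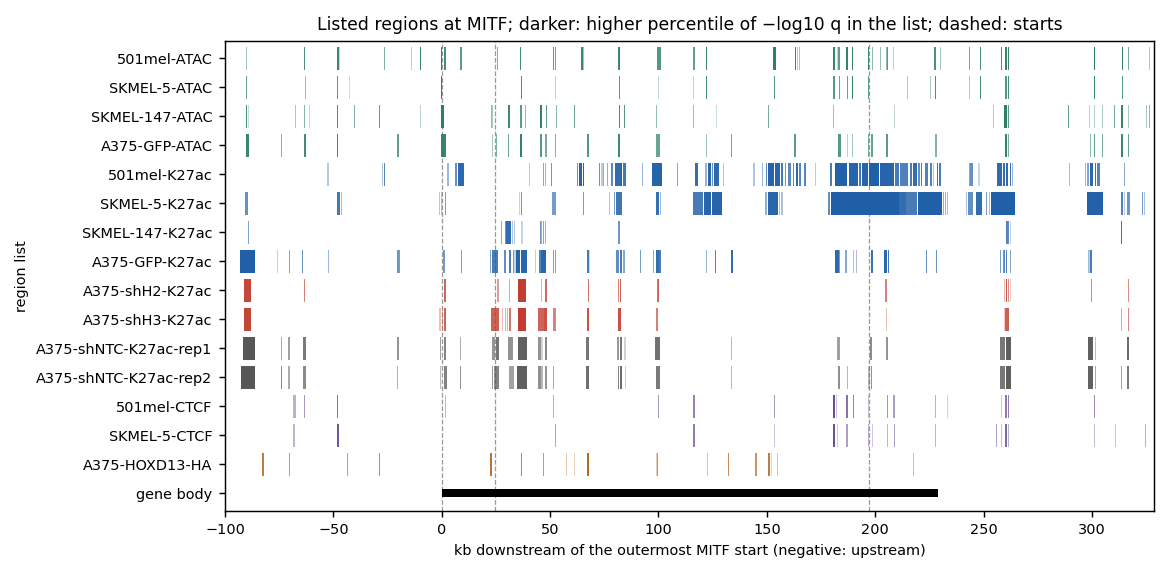
The horizontal axis gives kb downstream of the outermost MITF start, each line down the page is a region list, boxes are listed regions (the narrowest drawn wider than scale) and darker boxes have a higher percentile; dashed lines mark the 3 starts. K27ac of 501mel and SKMEL-5 is dense around the M start, and K27ac of the A375 lists sits mostly near the middle start and upstream of the gene.

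SOX10 carried the densest K27ac of the 5 genes in every list but that of SKMEL-5. Listed K27ac regions covered 28.7% of its window of 212.244 kb in 501mel, 24.0% in SKMEL-5, 17.7% in SKMEL-147 and 55.4% in A375-GFP. The median over all gene windows was 1.10%, 1.97%, 1.197% and 4.39% in the same 4 lists, and SOX10 stood at percentiles 99.9, 99.6, 99.5 and 99.98 of all genes. SOX10 lies inside the annotated span of POLR2F (chr22:37953663-38041915), a subunit gene of RNA polymerases, and 5 further genes overlap the window, so its regions cannot be assigned to SOX10 alone. Over the gene itself A375-GFP listed 1 region of 15.9 kb (chr22:37972261-37988120, fold 101.0, percentile 99.999). SKMEL-5 listed chr22:37977419-37986590 there (fold 29.7), 501mel chr22:37976194-37984439 (fold 17.6) and SKMEL-147 chr22:37977508-37984367 (fold 14.4). The SOX10 start was also open in all 4 lines, with folds of 6.41 in 501mel, 6.92 in SKMEL-5, 8.39 in SKMEL-147 and 3.85 in A375-GFP. SKMEL-147, without listed K27ac at the MITF starts, therefore had listed K27ac across the SOX10 body.

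A pair of broad K27ac places lay upstream of SOX10, and every line listed both. About 48 kb upstream, the strongest regions were chr22:38034752-38038654 in 501mel (fold 22.3), chr22:38032037-38042621 in SKMEL-5 (fold 45.9), chr22:38028393-38035874 in SKMEL-147 (fold 31.4) and chr22:38024101-38044266 in A375-GFP (fold 43.5). In SKMEL-147 and 501mel these were the strongest K27ac regions of the SOX10 window. About 34 kb upstream, SKMEL-5 listed chr22:38014988-38021824 with a fold of 52.0, A375-GFP chr22:38014914-38019827 with 40.7 and 501mel chr22:38016858-38020246 with 14.8. SKMEL-147 listed a weaker region there, chr22:38017373-38018270, with a fold of 5.05. The place nearer the gene was thus the one on which SKMEL-147 differed from the other lines in rank, at percentile 65.7 of its list, against 98.7 in 501mel, 99.1 in SKMEL-5 and 99.9 in A375-GFP.

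**Figure D3:**
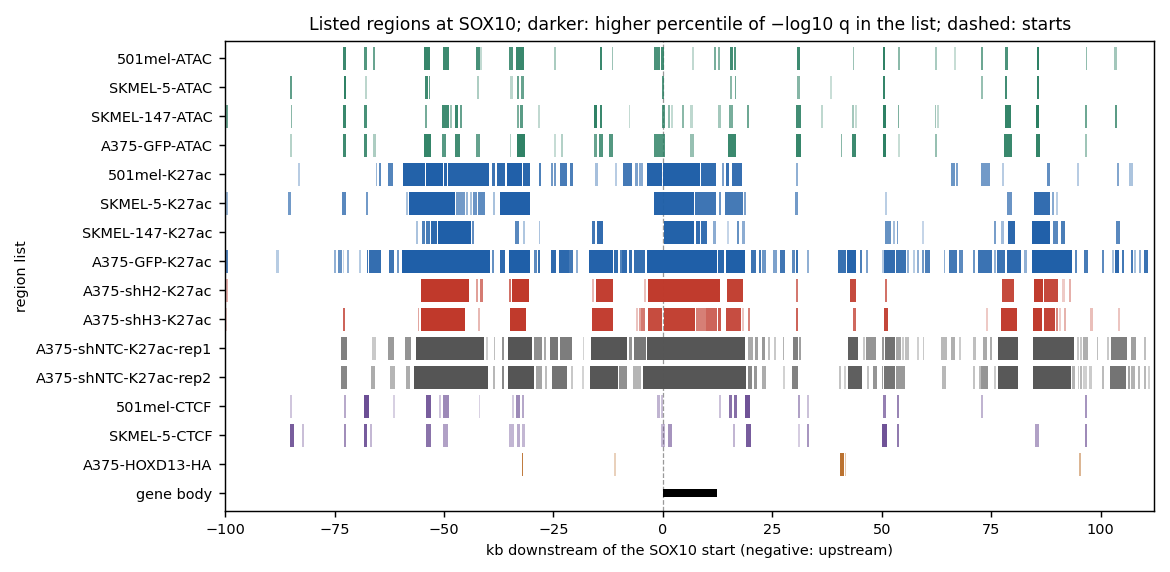
The horizontal axis gives kb downstream of the SOX10 start (negative values are upstream), with 1 region list per line, boxes for listed regions and darker boxes for higher percentiles. All 8 K27ac lists hold regions over the gene body and near 34 and 48 kb upstream, and the shH2 and shH3 boxes are fewer and narrower than those of shNTC.

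PAX3 had more K27ac in 501mel than in the other lines. Regions covered 12.1% of its window (299.112 kb) in 501mel, 3.69% in SKMEL-5, 2.14% in SKMEL-147 and 2.06% in A375-GFP, or percentiles 96.8, 71.2, 65.7 and 34.4 of all genes. The promoter (start at base 222298998 of chromosome 2) was open in all 4 lines, with folds of 14.7 in 501mel, 10.4 in SKMEL-5, 17.3 in SKMEL-147 and 9.07 in A375-GFP. Its K27ac was listed in all 4 as well, with lower folds of 4.33, 8.30, 5.05 and 6.64 in that order of lines. The strongest ATAC region by −log10 q was the same place in every line, inside the gene 7.92 kb from the start (chr2:222290513-222291645), and K27ac overlapped it in every line. In 501mel a K27ac region of 10.0 kb lay further in (chr2:222263659-222273676, fold 13.9), 30.3 kb from the start, and no other line listed K27ac there. PAX3 was thus marked at the start and at 1 inner place in all lines, and broadly in 501mel.

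TFAP2A was acetylated in all lines, at the inner of its 2 annotated starts. No list of the 15 held a region within 2 kb of the outer start (chr6, base 10419659). Around the inner start (base 10412391) ATAC regions were listed in 4 of 4 lines, with folds of 6.06 in 501mel, 4.63 in SKMEL-5, 6.68 in SKMEL-147 and 4.54 in A375-GFP. The K27ac region there lay over or beside the start and ran into the gene in each line, as chr6:10404686-10412259 in 501mel (fold 18.2), chr6:10404451-10415454 in SKMEL-5 (fold 36.7), chr6:10407791-10412293 in SKMEL-147 (fold 8.27) and chr6:10404588-10412329 in A375-GFP (fold 18.9). The inner start, whose upstream sequence is shown above, was therefore the marked one in every line.

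Coverage of the TFAP2A window (222.983 kb) was 12.9% in 501mel, 18.2% in SKMEL-5, 8.07% in SKMEL-147 and 9.94% in A375-GFP. These stood at percentiles 97.3, 99.0, 94.3 and 70.8 of all genes, so SKMEL-147 ranked high here while it ranked at 65.8 at MITF. The strongest K27ac region of SKMEL-5 lay 20.3 kb upstream of the inner start (chr6:10429336-10436008, fold 71.2). In the same place 501mel had a fold of 12.9, SKMEL-147 of 4.34 and A375-GFP of 3.72. An inner place 8.08 kb from the start (chr6:10403515-10405109) was open and acetylated in all 4 lines.

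LEF1 had no listed ATAC region within 2 kb of its start in SKMEL-5 and no K27ac region there in SKMEL-147. Its promoter (start at base 108166301 of chromosome 4) was listed as open in 501mel (fold 6.35), SKMEL-147 (5.17) and A375-GFP (6.10) and not in SKMEL-5. Promoter K27ac had a fold of 16.2 in SKMEL-5 (chr4:108165032-108167834), 3.71 in 501mel and 5.93 in A375-GFP and was not listed in SKMEL-147. SKMEL-5 therefore listed K27ac over a start for which its ATAC list, the shortest of the 4, held no region. The steadier place was inside the gene, 107 kb from the start, where chr4:108058555-108059560 was open in all 4 lines. K27ac there had folds of 16.2 in SKMEL-5, 13.0 in SKMEL-147 and 7.77 in A375-GFP, and none was listed in 501mel. Coverage of the LEF1 window (321.385 kb) was 5.23% in 501mel, 5.50% in SKMEL-5, 2.44% in SKMEL-147 and 4.55% in A375-GFP, at percentiles 84.3, 83.7, 69.4 and 50.8 of all genes.

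**Figure D4:**
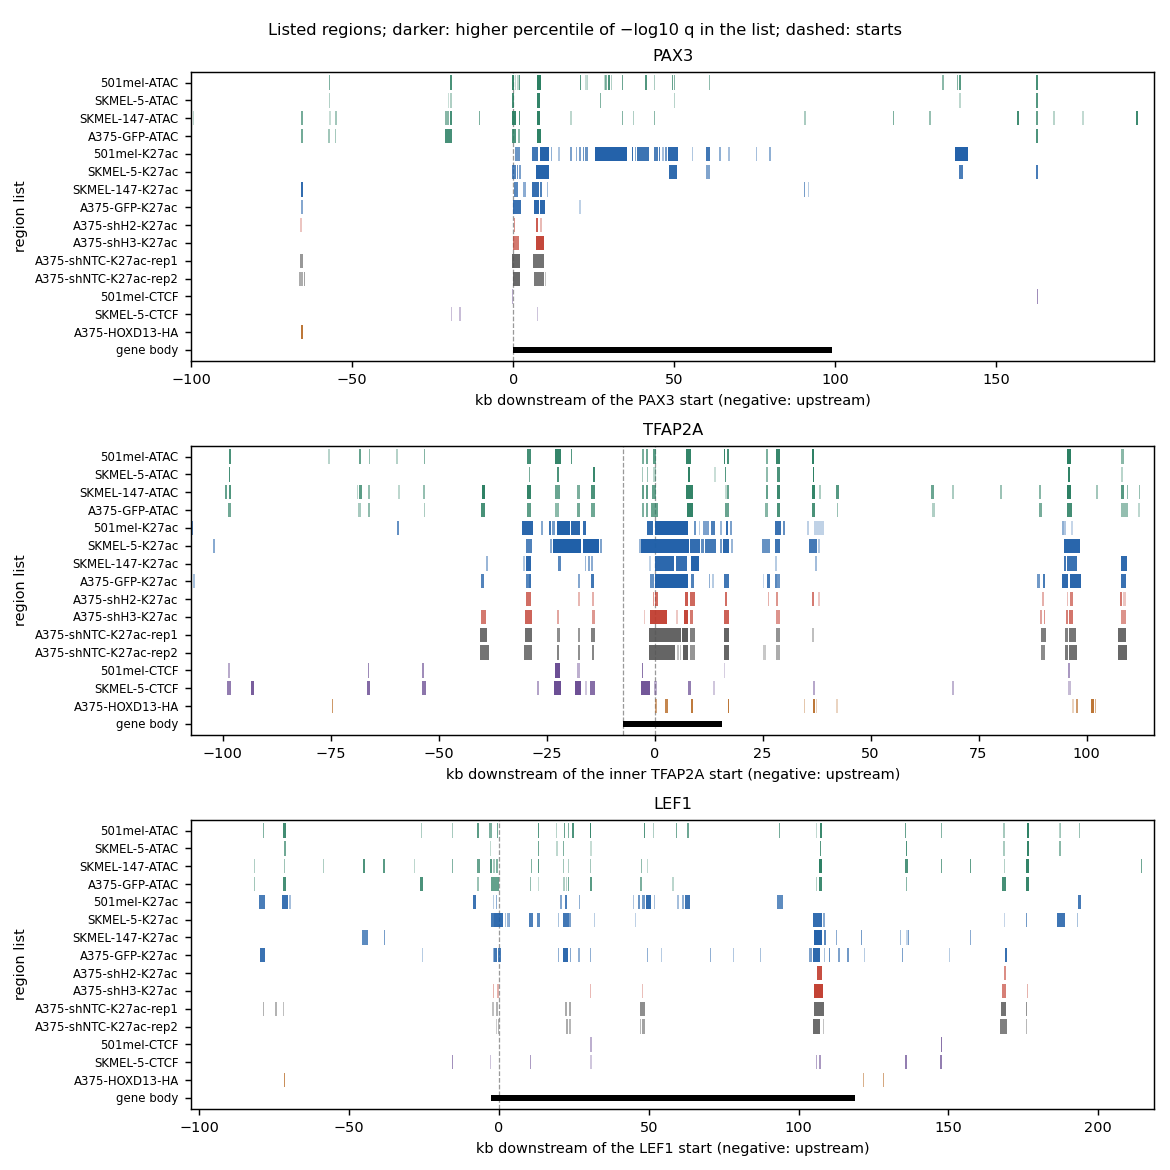
The horizontal axes give kb downstream of the PAX3, inner TFAP2A and LEF1 starts, with 1 region list per line, boxes for listed regions and darker boxes for higher percentiles. PAX3 has broad K27ac in 501mel alone, TFAP2A has K27ac from the inner start inward in all lines, and LEF1 has isolated regions.

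**Figure D5:**
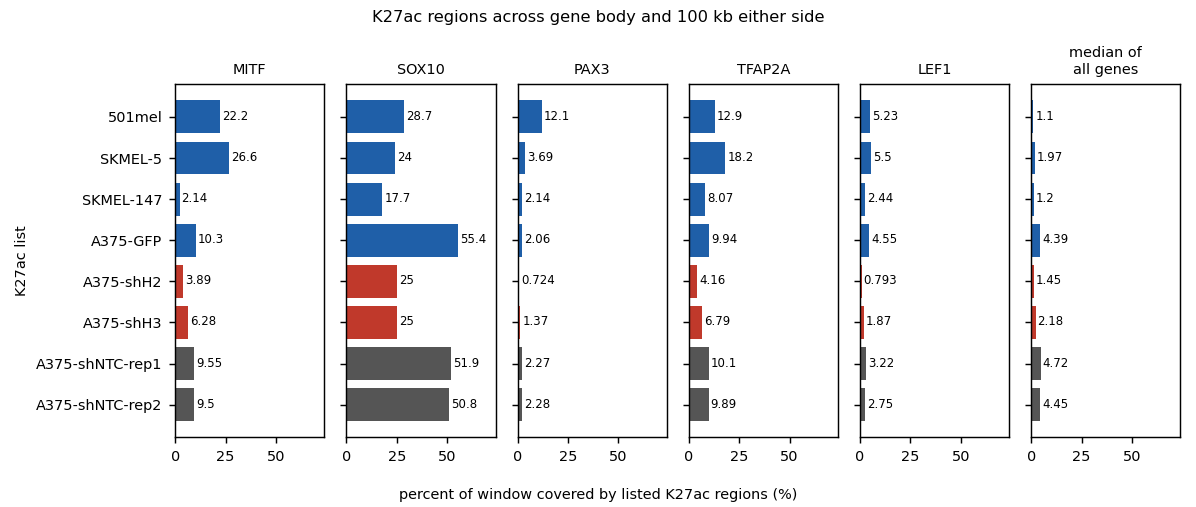
Bars give the percent of each window (gene body and 100 kb either side) covered by listed K27ac regions, 1 bar per list, with the median over all protein-coding genes in the last panel. SOX10 reaches 55.4% in A375-GFP, MITF reaches 26.6% in SKMEL-5, and both hairpin bars are below both shNTC bars for each gene and for the median of all genes.

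Open regions were then merged over the 4 ATAC lists to see which were shared. The 5 genes held 229 merged open regions, of which 49 (21.4%) were open in all 4 lines, against 14.7% of 228532 merged regions in the genome. TFAP2A had the highest share, 13 of 34, and PAX3 the lowest, 5 of 36. A further 9 (3.93%) were open in 501mel and SKMEL-5 only, against 1.46% in the genome, and 4 of those 9 were at MITF. K27ac in all 4 lines was listed at 23 (10.0%), against 2.21% in the genome, 12 of them at SOX10 and 0 at LEF1. In each line a larger share of the open regions was acetylated at the 5 genes than in the genome, 56.6% against 20.2% in 501mel, 83.1% against 43.3% in SKMEL-5, 32.0% against 19.7% in SKMEL-147 and 68.1% against 37.6% in A375-GFP. Within SKMEL-147 the share was 59.4% at SOX10 and 21.7 to 26.7% at the other 4 genes. SOX10 thus accounted for 19 of the 47 open and acetylated regions of SKMEL-147.

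CTCF regions at the 5 genes were shared between 501mel and SKMEL-5 at a rate near, and slightly below, that of all 501mel CTCF regions. The 501mel list held 57 at the 5 genes and the SKMEL-5 list 70, and 41 of the 57 (71.9%) overlapped an SKMEL-5 region, against 76.9% of all 501mel CTCF regions. MITF had 22 in 501mel, 16 of them shared, and SOX10 23, also with 16 shared. TFAP2A shared 7 of 8, LEF1 2 of 2, and PAX3 0 of 2. At MITF the strongest one in both lines was at the lower edge of the broad SKMEL-5 K27ac region, chr3:69919923-69920875 in 501mel (fold 32.3) and chr3:69919878-69921084 in SKMEL-5 (fold 40.4), 181 kb downstream of the outermost start. At TFAP2A it lay within the upstream SKMEL-5 K27ac region, with folds of 33.5 in 501mel (chr6:10434324-10435438) and 48.6 in SKMEL-5 (chr6:10434046-10435633). SKMEL-5 also listed a strong CTCF region just upstream of the inner TFAP2A start (chr6:10413485-10415597, fold 33.1), where 501mel had a weaker one (chr6:10415061-10415388, fold 12.8).

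HOXD13-HA regions were dense at TFAP2A, MITF and SOX10, near the middle of all genes at LEF1 and sparse at PAX3. All 5 genes had at least 1, as did 76.1% of all genes. MITF had 20 (4.66 per 100 kb, percentile 99.6 of all genes), TFAP2A 13 (5.83 per 100 kb, percentile 99.8), SOX10 5 (2.36, percentile 92.4), LEF1 3 (0.933, percentile 58.9) and PAX3 1 (0.334, percentile 25.7). The median over all genes was 0.748 per 100 kb. These densities count regions of any strength, and many were weak. Of the 42 regions of the set, 11 had a −log10 q of at least 10. Percentiles went down to 2.78 at MITF and 3.13 at TFAP2A. Of the 42 regions, 16 (38.1%, 95% Wilson interval 25 to 53.2%, counting error only) overlapped an A375-GFP ATAC region, against 34.1% of all HOXD13-HA regions. K27ac of A375-GFP overlapped 18 (42.9%), against 22.2% of all HOXD13-HA regions. By gene it overlapped 7 of 20 at MITF, 4 of 5 at SOX10, 1 of 1 at PAX3, 6 of 13 at TFAP2A and 0 of 3 at LEF1. This K27ac covered 2.06% (PAX3) to 55.4% (SOX10) of the windows, against 3.47% of the genome, and the comparison was not matched for coverage. These 42 regions lie in 5 windows and are not independent of each other. An HA library of cells without tagged HOXD13 was not analysed here, so the background of the antibody at these places is unknown.

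The strongest HOXD13-HA region of the set was in the MITF body, chr3:69806437-69807370 (fold 10.9, percentile 98.6), 67.4 kb from the outermost start, and was open and acetylated in A375-GFP. A second strong one lay 1.49 kb before the middle MITF start (chr3:69761778-69762858, fold 6.48). HOXD13-HA was not listed within 2 kb of the M start, the outermost MITF start or the SOX10, PAX3 and LEF1 starts. Promoters of 2 of the 5 genes, MITF and TFAP2A, thus had one within 2 kb of a start, against 6.9% of all genes. MITF has 3 starts and TFAP2A 2, which gives them more windows to be called in, and each was called at 1 of them. At the inner TFAP2A start HOXD13-HA was weak (chr6:10412059-10412293, fold 3.30, percentile 38.6). At SOX10, 1 of the 5 fell in the K27ac place 34 kb upstream (chr22:38016444-38016805, fold 3.99), which was open and acetylated in all 4 lines. The only PAX3 region (chr2:222364461-222364775, fold 4.70) lay 65.6 kb upstream at a place open and acetylated in SKMEL-147 and A375-GFP and not in 501mel or SKMEL-5. The strongest TFAP2A region (chr6:10310668-10311254, fold 7.27) overlapped no region of any other list. Of the 42 regions, 20 overlapped neither ATAC nor K27ac of A375-GFP, 12 of them at MITF.

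In the hairpin libraries the 5 genes kept their main K27ac places while coverage was lower, as it was across the genome. MITF was covered over 3.89% in shH2 and 6.28% in shH3, against 9.55% and 9.50% in the shNTC replicates. SOX10 was covered over 24.96% in shH2 and 25.04% in shH3, against 51.9% and 50.8%. PAX3 had 0.724% and 1.37%, against 2.27% and 2.28%. TFAP2A had 4.16% and 6.79%, against 10.1% and 9.89%. LEF1 had 0.793% and 1.87%, against 3.22% and 2.75%. The hairpin values were below both shNTC values for each gene. The ratio of shH2 to the shNTC mean was 0.266 (LEF1) to 0.486 (SOX10), with a median over all genes of 0.308 and a ratio of covered bases over the whole genome of 0.364. For shH3 it was 0.487 (SOX10) to 0.680 (TFAP2A), with a median over all genes of 0.459 and a whole-genome ratio of 0.488. The lower coverage moved with the shorter and narrower hairpin lists, and the part of list length in it was not tested.

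Promoter K27ac was listed for 4 of 5 genes in shH2 (42.6% of all genes) and 5 of 5 in shH3 (53.7%), against 5 of 5 in both shNTC replicates (60.5% and 59.1%). No promoter of the 5 genes was listed in both shNTC replicates and in neither hairpin (0 of 5, against 9.4% of 11604 genes with promoter K27ac in both replicates). The LEF1 promoter was listed in shH3 (fold 4.09) and in both shNTC replicates (3.76 and 3.65) but not in shH2. The M start of MITF was weak in all 4 libraries, with no region within 2 kb in shH2 and a fold of 3.55 in shH3, against 5.19 and 4.59 in shNTC. The PAX3 promoter had folds of 4.68 in shH2 and 6.24 in shH3, against 11.2 and 10.2. The inner TFAP2A start had 6.14 in shH2 and 13.51 in shH3, against 12.7 and 11.9. For TFAP2A the shH3 value was thus above both shNTC values and the shH2 value below both.

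Of 87 K27ac regions of the 5 genes listed in both shNTC replicates, 31 (35.6%) were listed in neither hairpin, against 37.1% in the genome. SOX10 gave 21 of these 31, out of its 34 regions (61.8%), MITF 8 of 29, LEF1 2 of 7, and PAX3 and TFAP2A 0 of 3 and 0 of 14. This order of the genes did not hold among regions with a −log10 q of at least 10, where it was 2 of 11 at SOX10, 3 of 9 at MITF, 3 of 8 at TFAP2A, 1 of 2 at PAX3 and 1 of 2 at LEF1. The SOX10 regions concerned were regions with shNTC folds of at most 8.40, the strongest being chr22:38005200-38010275 (7.90 and 8.40), 23.2 kb upstream. Its main places stayed listed. Over the gene body shH2 had 1 region of 16.5 kb (chr22:37971478-37987954, fold 20.4) and shH3 a strongest region of 7.06 kb (chr22:37977301-37984359, fold 16.0), against single regions of 22.4 and 23.6 kb in shNTC (folds 39.8 and 39.2). About 48 kb upstream shH2 had 11.1 kb (fold 36.3) and shH3 10.0 kb (fold 42.7), against 15.4 and 16.8 kb (folds 61.99 and 53.7). Cut to the same length by −log10 q, the 4 lists gave 5 of 45 such regions at the 5 genes, 4 of them among 14 at SOX10, and 16.4% in the genome.

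At MITF the strongest region listed in both shNTC replicates and in neither hairpin was chr3:69665133-69665597 (folds 4.17 and 5.60), 74.1 kb upstream, followed by chr3:69922051-69923185 (4.59 and 5.33), 183 kb downstream of the outermost start. The strongest MITF places were listed in all 4 libraries. At 37 kb from the outermost start the fold was 13.6 in shH2 and 22.97 in shH3, against 14.2 and 14.0 in shNTC. At 90 kb upstream it was 7.66 in shH2 and 9.83 in shH3, against 28.9 and 26.8. At LEF1 the 2 regions concerned lay side by side in the gene, chr4:108142264-108142898 (4.17 and 3.79) and chr4:108143151-108144151 (4.03 and 4.21). In the other direction, 1 of 46 regions listed in both hairpins was in neither shNTC replicate, against 1.85% in the genome. It lay in the SOX10 window at the start of SLC16A8 and BAIAP2L2 (chr22:38084081-38084410, folds 4.06 in shH2 and 3.01 in shH3).

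Genes listed as targets or partners of MITF and SOX10 were mostly acetylated in 501mel and SKMEL-5 and mostly not in SKMEL-147 and A375-GFP. The list held 20 pigment and lineage genes. Of these, 18 had promoter K27ac in 501mel, 19 in SKMEL-5, 2 in SKMEL-147 and 7 in A375-GFP. Over all genes the shares were 26.1%, 48.2%, 24.6% and 55.8% in the same order of lines, so the list stood above all genes in the first pair of lines and below them in the other. Open promoters were listed for 19, 17, 12 and 13 of the 20, where all genes had 70.7%, 62.9%, 78.1% and 78.3%. MLANA, a melanosome protein, had folds of 32.3 in 501mel and 57.6 in SKMEL-5 and was not listed in the K27ac lists of SKMEL-147 and A375-GFP. TYRP1, a pigment enzyme, had 30.3 and 36.2 and was likewise not listed in the other 2 lines. ERBB3, a receptor that SOX10 is known to activate, had 7.70 in 501mel, 21.8 in SKMEL-5 and 32.7 in A375-GFP, and was not listed in SKMEL-147. The 2 genes listed in SKMEL-147 were RAB27A (fold 4.13) and RAB38 (3.97).

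In the hairpin libraries 4 of these 20 genes had promoter K27ac in shH2 and 7 in shH3, against 9 and 9 in shNTC. Over all genes the share was likewise lower in the hairpins, at 42.6% in shH2 and 53.7% in shH3, against 60.5% and 59.1% in shNTC. TYR, which encodes the enzyme that begins melanin synthesis, and BCL2A1, a survival gene, were listed in both shNTC replicates and in neither hairpin. They were 2 of the 9 genes listed in both replicates, against 9.4% of 11604 genes. Their shNTC folds were 3.32 and 3.47 for TYR and 7.88 and 5.33 for BCL2A1. The TYR regions were weak, at percentiles 13.7 and 18.7 of their lists, and A375-GFP listed no K27ac at the TYR promoter. Of 8 genes listed for WNT and cAMP input, 4 had promoter K27ac in 501mel, 4 in SKMEL-5, 5 in SKMEL-147 and 6 in A375-GFP. The count was 6 in each hairpin and shNTC list, and all are to be read against the same shares over all genes. CTNNB1, which encodes beta-catenin, and CREB1 were among them in all of these lists. TCF4, also among the 8, encodes an E-protein and is not the WNT factor TCF7L2. Its promoter K27ac was listed in SKMEL-147 and every A375 list and not in 501mel or SKMEL-5. The counts of the former lists therefore include a gene that is not a WNT factor. SKMEL-147 listed more of these 8 genes, TCF4 included, than of the 20 pigment and lineage genes.

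The genes whose open and acetylated coverage followed each factor most closely were found by Pearson's r over the 8 ATAC and K27ac lists of the 4 lines, a description over 8 points that share 4 lines. For MITF they were ST6GALNAC1 (r = 0.991), LOC100996598 (0.990) and CDK19 (0.989). For SOX10 they were DIP2B (0.992), ANAPC16 (0.989) and ATF1 (0.983). For PAX3 they were FYTTD1 (0.983), OR6A2 (0.978) and STRADB (0.978), for TFAP2A PECR (0.979), FBXO32 (0.977) and INPP4B (0.963), and for LEF1 DLGAP1 (0.996), RDX (0.993) and PAG1 (0.990). Among the 5 factors LEF1 and MITF were the closest pair (0.937) and PAX3 and SOX10 the farthest (0.334). With 19974 genes and 8 points, these values give a ranking only, and the unlike lengths of the lists enter all of them.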

How the data were processed

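The 15 libraries came with lists of enriched regions, and the other 6 samples (5 IgG, 1 HA of A375-GFP) were not analysed here. Per the submitters' processing notes, the tools were MACS2, deepTools, Bowtie2, SAMtools and Trim Galore, with the build hg38; versions, thresholds and control libraries are not given in the sources used here, nor which libraries came from ChIP-seq or CUT&Tag. The deposited columns are the authors' score, fold enrichment (a ratio), −log10 p, −log10 q and the summit offset, a position in bp. Read counts were not used here, so depth is unknown. Of the lists, 5 (A375-GFP ATAC, shH2, shH3 and both shNTC) also hold regions on alternative genome copies, so processing was not uniform.

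Regions on the autosomes and X were read with pandas 2.3.3. Overlap meant at least 1 bp. Starts came from the RefSeq promoter table (15813 of 19974 genes; both gene ends for the other 4161, SOX10 among them). The table of genes gives no exons, so introns and exons were not told apart. Regions not at a start are called distal. Named regions are those at a start, the strongest by −log10 q in each list and window, and the 2 strongest K27ac regions listed on 1 side of the hairpin comparison; overlaps of these with other lists, and a few broad or shared places, were named after their values were seen. Lists of related genes and markers were fixed with the members. Likeness used log2 of coverage over genome coverage plus 0.1, for genes over 1 Mb away. Lost K27ac means listed in both shNTC replicates and neither hairpin. No test was run, since each group but shNTC has 1 library; nothing says whether the 2 shNTC replicates came from separate cultures. The interval code was tested on simulated regions. Members and lists were chosen with earlier results of these data known.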

Additional observations from a re-analysis of the deposited data

How the results depend on the processing

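Of 65 alternatives, 44 stayed within 1.5 times the reported count or value, among them every promoter window of 1 or 5 kb. Some of these still changed single calls. Windows of 5 kb gave 5 open promoters in SKMEL-5 in place of 4, LEF1 included. They gave 4 acetylated promoters in SKMEL-147 in place of 3. A −log10 q of at least 10 gave 3 open promoters in SKMEL-5 and 2 acetylated ones in SKMEL-147. Lists of equal length gave 4 open promoters in SKMEL-147 in place of 5. Keeping only regions with a −log10 q of at least 10 gave 3 acetylated promoters in 501mel in place of 5, without PAX3 and LEF1. In A375-GFP it gave 4 in place of 5, without LEF1. The same cut gave 16 shared CTCF regions in place of 41, and 11 HOXD13-HA regions in place of 42. It lowered the median K27ac coverage of the 5 genes to 0.863% in SKMEL-147 (2.44% with all regions) and 4.67% in A375-GFP (9.94%), and lists of equal length gave 6.60% in A375-GFP. Windows of 50 kb raised that median to 22.3% in 501mel (12.9% with 100 kb) and 29.7% in SKMEL-5 (18.2%). The 31 K27ac regions in both shNTC replicates and neither hairpin became 10 at a −log10 q of at least 10, 5 with lists of equal length, 53 when overlap meant at least 50% of the region and 18 within 50 kb. With either shNTC replicate left out they were 52 in both cases. The 1 region in both hairpins and neither replicate became 0 at a −log10 q of at least 10, 0 with equal lists, 0 within 50 kb, 4 under the stricter overlap, 3 with shH2 alone, 6 with shH3 alone, and 1 to 2 with a replicate left out. The causes were not tested beyond what the narrower lists and windows do by construction. No paired analysis was possible because no test was run and only shNTC has a second replicate. Depth is unknown, so list length limits every statement that a region is not listed.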

Other observations

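Relatives of MITF, SOX10, PAX3 and TFAP2A were marked by line in their own way. The 10 paralogs were TFEB, TFE3, TFEC, SOX8, SOX9, PAX7, TFAP2B, TFAP2C, TFAP2D and TFAP2E. Promoter K27ac was listed for 2 of them in 501mel, 1 in SKMEL-5, 2 in SKMEL-147 and 3 in A375-GFP. Over all genes the shares were 26.1%, 48.2%, 24.6% and 55.8% in the same order of lines. TFE3, a relative of MITF, was the only 1 with promoter K27ac in all 4 lines. Its folds were 3.40 in 501mel, 5.24 in SKMEL-5, 4.69 in SKMEL-147 and 4.398 in A375-GFP. TFAP2C, a relative of TFAP2A, had promoter K27ac in SKMEL-147 (fold 21.0, percentile 99.5) and A375-GFP (19.5, percentile 99.4) and not in 501mel or SKMEL-5, although its promoter was open in all 4. TFAP2B was listed in A375 alone, with a fold of 53.7 in A375-GFP, 7.80 in shH2 and 26.7 in shH3, against 22.4 and 22.2 in shNTC. SOX9, a relative of SOX10, was open in SKMEL-5, SKMEL-147 and A375-GFP, and its promoter carried K27ac in none of the 8 lists.

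HOXD13-HA was listed at the promoter of TFEB among these 10 paralogs and at those of RAB27A and ST3GAL6 among the 20 pigment and lineage genes. Among the 8 genes listed for WNT and cAMP input it was at those of TCF7L2 and TCF4, the latter not a WNT factor. Over all genes 6.9% had such a region.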
